A study of Oryctolagus cuniculus with 20 samples.

Results

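A piece of common carotid artery of the rabbit (Oryctolagus cuniculus) had been moved into a vein, and the results below follow one quantity: how far the difference between this graft and the opposite artery shifted from day 14 to day 30. For each gene it is the graft effect at day 30 minus the graft effect at day 14, where a graft effect is the mean log2(FPKM + 1) of the grafts minus that of the controls of the same day. FPKM is a fragment count divided by transcript length and by library size, so levels of different genes can be set side by side. The quantity uses 16 of the 20 libraries of the series, 4 in each of 4 artery groups. It was computed for every gene with at least 1 FPKM in at least 4 of the 20 libraries, which left 8657 of 23669 genes. A positive value means that the graft stood higher against its control at day 30 than at day 14, and a negative value that it stood lower. A gene is said here to be called where the change passed an adjusted p of 0.05.

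The groups were the transplanted artery at day 14, the transplanted artery at day 30, and for each of these days the carotid artery of the other side, which had not been operated on. The remaining group, 4 libraries of unoperated external jugular vein, entered the filter and the estimate of the spread but not the contrast. The labels give no strain, age, sex or number of animals. They name transplantation as the treatment of all 20 samples, the unoperated vessels included, and a cell line (HASMC) for all of them, although every other field describes vessel tissue. Libraries are numbered as biological replicates, but nothing ties a number to an animal of its own. The p-values therefore measure only how these samples scatter, and that scatter may be technical. The title of the series names thrombospondin 4 and the apoptosis of vascular smooth muscle cells. The contrast asks whether the grafted artery differed from its unoperated counterpart in the same way on both days, with any drift of the unoperated artery over the same days taken off.

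The wall of a muscular artery consists mostly of contractile smooth muscle cells, which carry a set of actin, myosin and calcium-handling proteins that they can lose when the vessel is injured or its load changes. Cells that have lost it can divide, migrate and secrete matrix and the proteases that cut it, while macrophages and lymphocytes enter from the blood and the outer coat. In a vessel moved to another site these processes run over weeks, so a measurement at a single day sees one stage of them.

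Libraries that stand apart come first, since many results touch them. The SD of log2 values, as a median over 1264 genes above 30 FPKM, came to 0.0732 in the controls of day 14, 0.324 in the grafts of day 14, 0.198 in the controls of day 30 and 0.189 in the grafts of day 30. The controls of day 14 therefore varied less than any other group, and counts are also given with that group taken as 1 sample. In each of the other groups 1 library lay close to a weighted mean of its 3 companions (graft day 14 replicate 3, control day 30 replicate 2, graft day 30 replicate 4 and vein replicate 4), and counts are also given without these 4 mixture-like libraries. Transcripts of the mitochondrial genome made up 22.6% to 24.3% of summed FPKM in controls of day 14, 3.98% to 32.7% in grafts of day 14, 4.39% to 7.81% in controls of day 30 and 10.7% to 29.1% in grafts of day 30. Between 6759 and 7740 genes reached 1 FPKM in an artery library, and read numbers are unknown. In tissue RNA, fewer cells of a type and less RNA per cell cannot be told apart.

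The graft's difference from the opposite artery was not the same on both days for 1121 of the 8657 genes tested, 12.9%. By comparison, the graft differed from its control in 53.5% of genes at day 14 and in 37.6% at day 30. Of the 1121, 466 stood higher against the control at day 30 (5.38% of genes tested) and 655 lower (7.57%). The most frequent course was a graft effect that kept its sign and was smaller at day 30, in 678 called genes, or 60.5%, against 52.5% of all genes tested. Another 354 had effects of opposite sign on the 2 days (31.6%, against 23.7% of all genes tested). A larger effect of the same sign at day 30 was found in 89 (7.9% against 23.8%). The day 14 effect enters the change with a minus sign, so these shares describe the called genes and test nothing further. By the sign of the day 14 estimate, genes below the control that moved up numbered 409 (36.5%, against 28.6% of all genes tested). Genes above it that moved down numbered 623 (55.6% against 47.5%). There were 57 above it that moved up (5.1% against 15.7%) and 32 below it that moved down (2.9% against 8.1%). The same limit holds for these shares. The median size of a called change was 1.00 on the log2 scale, with 564 changes above 1 and 127 above 2.

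The number of called genes rests on how the samples are counted. With the controls of day 14 as 1 sample 93 genes were called (1.07% of those tested), without the 4 mixture-like libraries 381 (4.4%), and with both changes 7 (0.0809%), where 741 had an unadjusted p under 0.05. Of the 1121 genes, 951 were above 0 in all 16 artery libraries and 750 were called in each fit that left out 1 artery library. The balance of higher and lower calls rests on the scale: without the mitochondrial transcripts in the library total it was 836 higher and 210 lower, and the median change of all genes moved by 0.29, from -0.08 to 0.21. The other scalings moved that median by at most 0.08, with 601 higher and 524 lower after median-of-ratios scaling, 288 and 269 on TPM and 515 and 473 after quantile normalization. None of the 104 genes chosen for naming changed sign under these 4 scalings, but most were chosen for a called change in these same data. Of the 88 called among them, 17 lost the call without the mitochondrial transcripts in the scale. Over the 5 scalings 4 list medians changed sign, so list medians are set beside the median of all genes. Against that median 29 of 31 lists kept their sign.

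**Figure D1:**
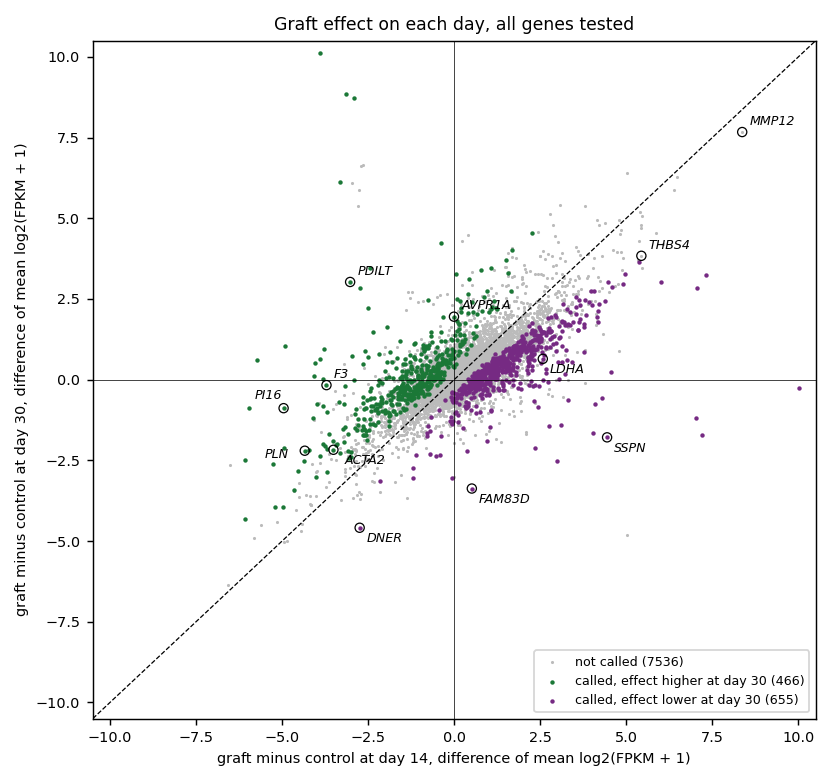
Graft effect at day 14 (horizontal axis) against graft effect at day 30 (vertical axis), both as differences of mean log2(FPKM + 1), for the 8657 genes tested. Grey points are 7536 genes that were not called, green points 466 genes called higher and purple points 655 called lower, and the dashed line marks equal effects. Green points at the left lie above the line and purple points at the right below it.

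**Figure D2:**
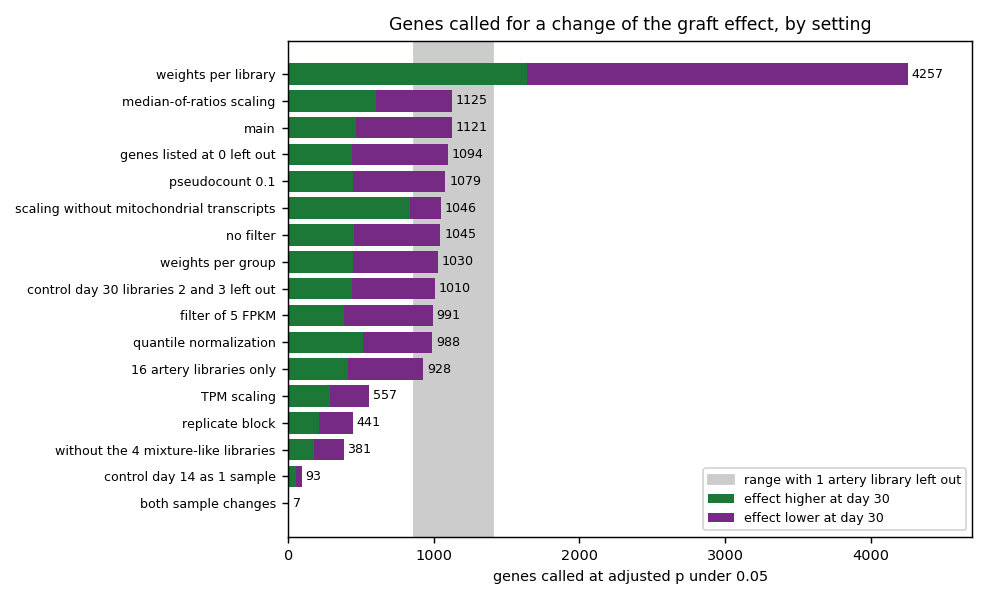
Number of genes called at an adjusted p under 0.05 (horizontal axis) in each setting (vertical axis), split into genes higher (green) and lower (purple) at day 30. The grey band runs from 865 to 1405, the range with 1 artery library left out. The main setting gives 1121, control day 14 as 1 sample 93, and both sample changes 7.

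By their median, contractile smooth muscle genes stood far below the control at day 14 and less far at day 30. Of 28 members tested, 8 were called higher and 2 lower, and the median change was 0.55 against -0.08 for all genes. That median was 0.35 without the mixture-like libraries (6 higher, 1 lower) and 0.31 without control day 30 libraries 2 and 3 (7 higher, 1 lower). The median graft effect of the list went from -2.69 at day 14 to -2.16 at day 30. The members' FPKM summed to between 24300 and 25030 in the controls of day 14 and 19810 and 25880 in the controls of day 30, and to between 3956 and 7131 in grafts of day 14 and 5497 and 6547 in grafts of day 30.

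PLN encodes phospholamban, which restrains the calcium pump of the muscle's internal store. Its level was 597, 594, 599 and 608 FPKM in the controls of day 14 and 28.8, 36.3, 24.4 and 26.1 FPKM in the grafts of that day. At day 30 the controls had 576, 460.0, 458 and 575 FPKM and the grafts 111, 130.4, 96.5 and 108 FPKM. All 4 late grafts lay above all 4 early ones, and on neither day did a graft reach a control. The graft effect went from -4.34 to -2.20, a change of 2.14 (SE 0.17, adjusted p = 7.6e-07). This call held in all 32 alternatives that were run, at adjusted p values between 1.1e-11 and 0.0483.

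ACTA2, smooth muscle actin, followed the same course at a higher level. Controls of day 14 had 7087, 7303, 7229 and 7061 FPKM and grafts of day 14 468, 825, 632 and 640.1 FPKM. Controls of day 30 had 6506, 5985, 5286 and 7611 FPKM and grafts of day 30 1617, 1213, 1381 and 1395 FPKM. The late grafts did not overlap the early ones, while the controls of the 2 days did overlap. The change was 1.34 (SE 0.21, adjusted p = 0.000595). A two-sided exact permutation test over 4900 reassignments of the days within grafts and within controls gave p = 0.00204. That test takes all 16 libraries as independent, which the near-equal controls of day 14 and the mixture-like libraries put in doubt. With the controls of day 14 as 1 sample the adjusted p of ACTA2 was 0.0542, and its alternatives ran from 5.34e-09 to 0.386.

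The other called members were MYH11, the smooth muscle myosin heavy chain (1.53, SE 0.36, adjusted p = 0.00962), TAGLN, the actin-binding transgelin (1.56, SE 0.34, adjusted p = 0.00705), SYNPO2, an actin-associated protein (2.04), CRYAB, a small heat shock protein of muscle (1.74), FHL1 (1.13) and MYLK, a kinase that activates smooth muscle myosin (0.86). In MYH11 the 4 grafts of day 14 were split, with 1.6 and 2.6 FPKM in replicates 1 and 2 and 0.43 and 0.19 FPKM in replicates 3 and 4, below 5.76, 4.55, 5.55 and 4.18 FPKM in the grafts of day 30. With the controls of day 14 as 1 sample, adjusted p rose to 0.186 for MYH11 (range 2.56e-07 to 0.546) and 0.147 for TAGLN (range 4.84e-06 to 0.459). MYH11 also missed the threshold, at an adjusted p of 0.0691, when the mixture-like libraries were dropped. The members called lower, named like other exceptions after their values were seen, were MYOCD, a coactivator of contractile genes (-1.92), and TPM1, a tropomyosin (-0.67). MYOCD stood at a mean of 0.40 FPKM in the controls of day 14 and 6.13 FPKM in those of day 30, against 0.048 and 0.353 FPKM in the grafts. On log2(FPKM + 1) its change thus lay mostly in the controls. The graft means also rose, but below 1 FPKM, where the added 1 hides most of a relative rise. Under control day 14 as 1 sample the list kept 1 member higher and 1 lower.

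Of 24 ion channel and calcium-handling genes 10 were called higher and 0 lower (median 0.64). The median graft effect went from -1.17 at day 14 to -0.76 at day 30. Besides PLN they included CASQ2, the calcium-binding calsequestrin (2.95), P2RX1, an ATP-gated channel (2.83), AVPR1A, a vasopressin receptor (1.96), AGTR1, an angiotensin receptor (1.64), KCNA5, a potassium channel (1.38), RYR2, a calcium release channel (1.33), ITPR1 (0.86) and GUCY1B1, a subunit of the nitric oxide receptor (0.73). With the controls of day 14 as 1 sample 5 were called, and without the mixture-like libraries 7.

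AVPR1A and CASQ2 reached this result along different courses. AVPR1A was near 0 in controls of day 14 (0.12, 0.27, 0.40 and 0.28 FPKM), grafts of day 14 (0.33, 0.34, 0.20 and 0.17 FPKM) and controls of day 30 (0.26, 0.24, 0.55 and 0.20 FPKM), and stood at 4.70, 4.29, 3.22 and 4.11 FPKM in the grafts of day 30. Only the late grafts were high, and they overlapped no other group (change 1.96, SE 0.20, adjusted p = 1.06e-05). CASQ2 was at 14.0, 12.5, 13.4 and 13.9 FPKM in the controls of day 14 against 6.03, 4.58, 2.46 and 7.47 FPKM in those of day 30. In grafts it went from 0.45, 0.84, 0.49 and 0.71 FPKM to 1.90, 7.23, 3.86 and 4.56 FPKM. The gap of CASQ2 thus narrowed from both sides, with a day change of 1.64 in grafts and -1.31 in controls (change 2.95, SE 0.38, adjusted p = 0.000114).

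**Figure D3:**
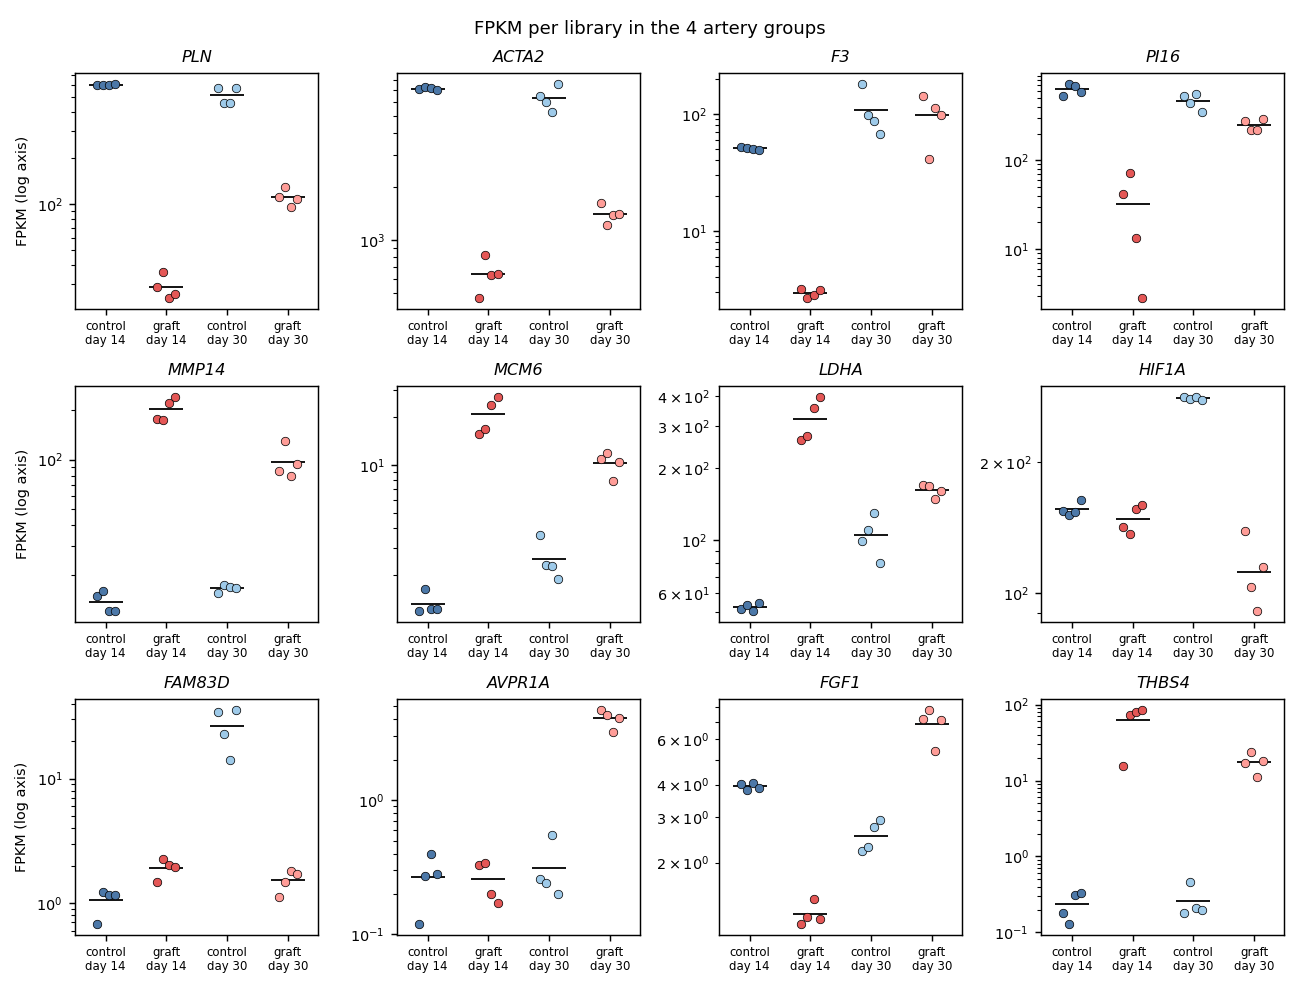
FPKM of 12 genes on log axes (vertical axis) in the 4 libraries of each artery group (horizontal axis), with bars at the group means. PLN, ACTA2, F3 and PI16 are low in grafts of day 14 and higher in grafts of day 30, MMP14, MCM6, LDHA and THBS4 stand highest in grafts of day 14, and FAM83D and HIF1A are high in the controls of day 30.

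Genes of fibroblasts and of the outer coat had the same direction. Of 15 members 6 were called higher and 0 lower, and 14 of the 15 changes were positive (median 0.93). The members summed to between 902 and 2154 FPKM in grafts of day 14 and between 4660 and 5172 FPKM in grafts of day 30, and the controls ran from 2965 to 3172 FPKM and from 2819 to 5634 FPKM. None was called with the controls of day 14 as 1 sample, and 2 were without the mixture-like libraries.

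PI16, a secreted inhibitor that marks fibroblasts of the adventitia, showed the largest change of this list. It stood at 533, 723, 682 and 593 FPKM in the controls of day 14 and at 41.5, 72.1, 13.2 and 2.82 FPKM in the grafts. At day 30 the controls had 534, 443, 555 and 347 FPKM and the grafts 279, 219, 220.3 and 289 FPKM. The late grafts lay above the early ones and still below every control (change 4.07, SE 0.82, adjusted p = 0.00375). This call ended with the controls of day 14 as 1 sample (adjusted p = 0.12) and without the mixture-like libraries (adjusted p = 0.0554), within a range of 7.1e-08 to 0.509. MFAP5, a microfibril protein (1.39), ALDH1A3 and ALDH1A1, which make retinoic acid (1.58 and 0.93), the transporter gene ABCA8 (1.40) and DCN, the proteoglycan decorin (0.94), were the others. DCN averaged 284 FPKM in grafts of day 14 and 666 FPKM in grafts of day 30, against 446 and 581 FPKM in the controls.

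Proteoglycan genes went both ways, with 6 of 19 called higher and 2 lower (median 0.13). EPYC, the small leucine-rich proteoglycan epiphycan, was at 171, 166, 168 and 177 FPKM in controls of day 14 and at 1.35, 4.91, 0.90 and 0.59 FPKM in grafts. Grafts of day 30 had 69.7, 15.6, 56.3 and 49.0 FPKM of it and their controls 468, 249, 235 and 117 FPKM. The graft effect of EPYC went from -6.07 to -2.48 (change 3.59, SE 0.63, adjusted p = 0.00131, or 0.0734 with the controls of day 14 as 1 sample, in a range of 1.42e-08 to 0.436). KERA, keratocan, was called with a change of 1.80, and the calls of PODN (1.38), GPC3 (1.82), DCN and PRELP were in the same direction. PRELP was listed at 0 in all 4 grafts of day 14, which can be a failed estimate.

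FMOD, fibromodulin, which binds collagen fibrils, went the other way. Its controls rose from 165, 170.2, 165 and 164 FPKM at day 14 to 324, 343, 404 and 319 FPKM at day 30. Its grafts fell from 94.4, 64.4, 72.0 and 60.5 FPKM to 46.1, 54.2, 26.6 and 42.2 FPKM. No 2 of the 4 groups overlapped, and the deficit widened from -1.20 to -3.05 (change -1.85, SE 0.26, adjusted p = 0.000273). SDC1, syndecan 1, was the other member called lower (-1.20).

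Among matrix proteases and their inhibitors 5 of 27 members were called lower and 1 higher, while 13 of the 27 changes were positive. The median change of -0.05 was close to that of all genes, and its place above or below that of all genes depended on the scale. MMP14, a membrane-bound collagenase, stood at 14.9, 15.9, 12 and 12 FPKM in the controls of day 14 and 177, 175, 222 and 241 FPKM in the grafts. At day 30 controls had 15.4, 17.3, 16.8 and 16.6 FPKM and grafts 85.6, 129, 79.1 and 94.4 FPKM. The late grafts lay between the early grafts and the controls and overlapped neither (change -1.34, SE 0.20, adjusted p = 0.000485). ADAM12 (-1.71), the gelatinase gene MMP2 (-0.90), the stromelysin gene MMP3 (-3.06) and ADAM9 (-0.58) were also called lower, and ADAMTS15, which cleaves proteoglycans, was called higher (0.71). MMP3 was listed at 0 in all 4 controls of day 14. MMP2 lost its call with the controls of day 14 as 1 sample and without the mitochondrial transcripts in the scale (adjusted p = 0.114).

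MMP12, the elastase of macrophages, was not called. It stood at 264, 232, 474 and 527 FPKM in grafts of day 14 and 134, 456, 156 and 263 FPKM in grafts of day 30, and at 0.21 FPKM or less in every control. The grafts of the 2 days overlapped (change -0.70, SE 0.43, adjusted p = 0.305).

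Among 17 collagen genes and collagen-modifying enzymes 3 were called lower and 0 higher, and these 3 were enzymes. LOXL1, which cross-links elastin and collagen, had 65.2, 79.6, 70.3 and 71.2 FPKM in grafts of day 14 and 43.5, 49.4, 46.3 and 50.4 FPKM in grafts of day 30. Its controls had 23.1, 23.9, 23.5 and 24.2 FPKM at day 14 and 40.7, 38.2, 36.6 and 35.6 FPKM at day 30. The groups closed in from both sides without overlap, and the effect went from 1.55 to 0.32 (change -1.24, SE 0.11, adjusted p = 2.17e-06). The lysyl hydroxylase genes PLOD1 (-0.70) and PLOD3 (-0.52, called in 11 of 32 alternatives) lost their calls with the controls of day 14 as 1 sample, on TPM and without the mitochondrial transcripts in the scale. In the elastic fibre list MFAP5 was called higher and EMILIN1, a glycoprotein of elastic fibres, lower (-1.05), while the median of the 10 members was 0.58.

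THBS4, the thrombospondin of the title, showed a smaller graft effect at day 30 that did not pass the test. Controls of day 14 had 0.18, 0.13, 0.31 and 0.33 FPKM and controls of day 30 0.18, 0.46, 0.21 and 0.20 FPKM. Grafts had 15.3, 71.8, 78.6 and 85.5 FPKM at day 14 and 16.9, 23.6, 11.3 and 18.3 FPKM at day 30. Every graft lay far above every control, and 3 of the 4 early grafts lay above all late ones, with replicate 1 of day 14 inside the range of day 30. The effect was 5.44 at day 14 and 3.84 at day 30, a change of -1.60 (SE 0.54, adjusted p = 0.0597). The two-sided exact permutation test gave p = 0.0824, where 0.000408 is the smallest value possible, with the limit given for ACTA2. Without graft day 14 replicate 1 the change was -2.17 with an adjusted p of 0.000153, within a range of 1.5e-06 to 0.749 over the alternatives.

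Of its relatives, THBS1 (change -0.83, SE 0.89, adjusted p = 0.584) and THBS3 (0.26, SE 0.18, adjusted p = 0.386) were not called. THBS1 stood at 10.1, 113, 210.5 and 21.2 FPKM in the controls of day 30, so that replicates 2 and 3 were high. Without these 2 libraries the sign of the THBS1 change turned (0.83, adjusted p = 0.227), and so did that of SELP, P-selectin (from -1.21 to 0.06, adjusted p = 0.895). Among all 17 matricellular genes 2 were called higher and 3 lower. SPARCL1, a glycoprotein of the matrix, moved up (1.96, SE 0.42, adjusted p = 0.00601), from a mean of 220.5 ± 134 to 609.9 ± 72.3 FPKM in grafts (SD, n = 4). MGP, which restrains calcification, moved up too (1.36). TNC, tenascin C, moved down (-1.77, SE 0.27, adjusted p = 0.000494), as its grafts went from 4.72, 6.04, 8.23 and 9.98 FPKM to 2.89, 3.19, 1.73 and 2.49 FPKM while the controls stayed at 1.02 FPKM or less. ECM1 (-1.21) and SMOC2 (-0.95) were called lower as well.

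**Figure D4:**
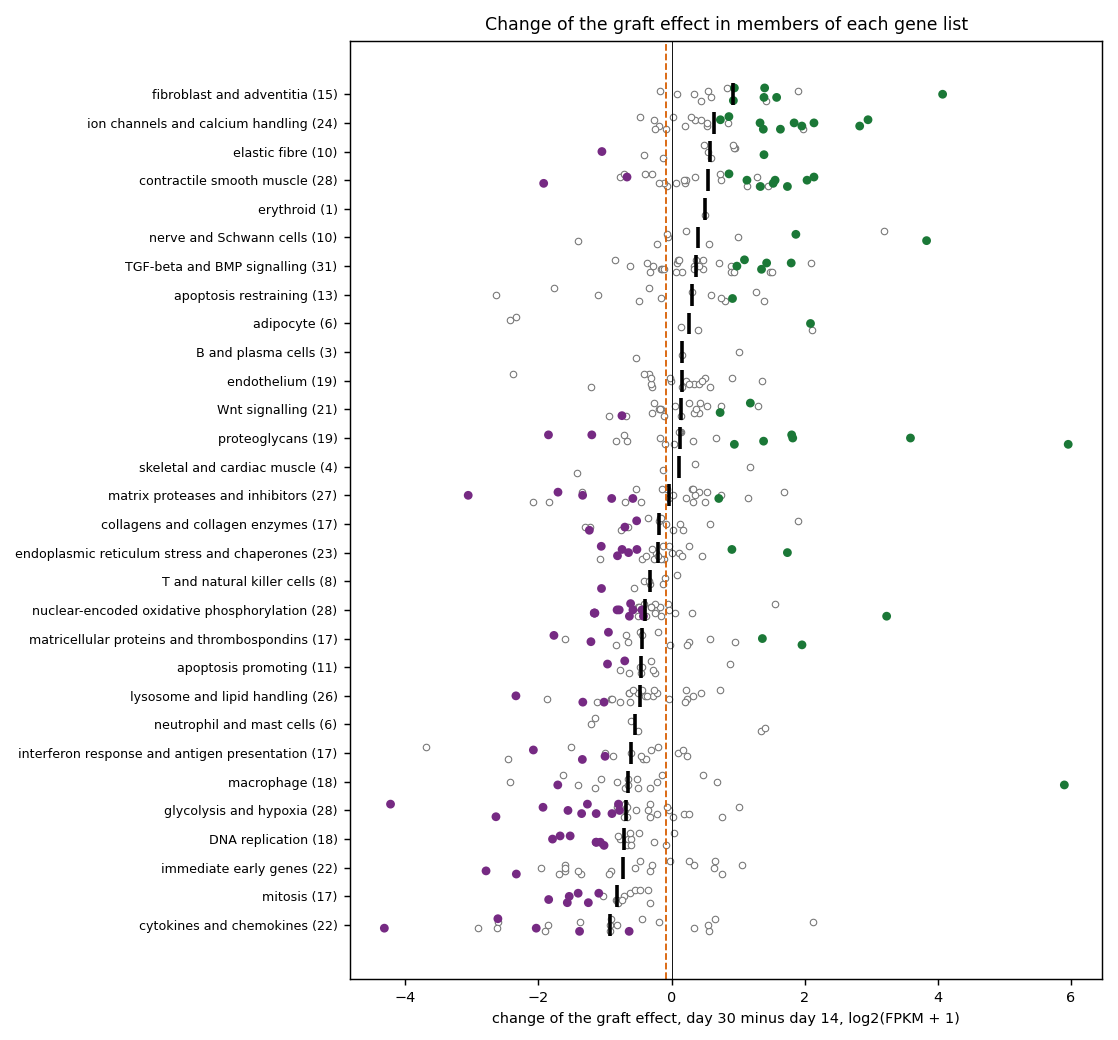
Change of the graft effect from day 14 to day 30, on log2(FPKM + 1) (horizontal axis), for the tested members of each gene list except the mitochondrially encoded transcripts (vertical axis, number tested in brackets). Green and purple points were called higher and lower, open points were not called, black bars are list medians and the dashed line is the median of all genes, -0.08. Fibroblast, ion channel and contractile lists lie to the right, and cell cycle, cytokine and glycolysis lists to the left.

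By their list medians, genes of DNA replication and mitosis were above the control on both days and less so at day 30. Of 18 replication genes 7 were called lower and 0 higher (median -0.72), and of 17 mitosis genes 6 lower and 0 higher (median -0.82). Median graft effects went from 1.83 to 1.17 for replication and from 2.11 to 1.12 for mitosis. The controls moved slightly up (median day change 0.22 and 0.26) and the grafts down (-0.55 and -0.78). MCM6, part of the replicative helicase, had 15.7, 17.0, 24.1 and 27.0 FPKM in grafts of day 14 and 10.9, 12, 7.94 and 10.4 FPKM in grafts of day 30. Its controls had 1.19, 1.65, 1.23 and 1.22 FPKM at day 14 and 3.60, 2.31, 2.29 and 1.91 FPKM at day 30, so the 4 groups formed 4 separate levels (change -1.52, SE 0.25, adjusted p = 0.000841).

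PCNA, the sliding clamp of DNA polymerase (-1.01, SE 0.15, adjusted p = 0.000343), RFC3 of the clamp loader (-1.13, below its control at day 30, with an effect of -0.55), MCM4 (-1.13), TK1, thymidine kinase (-1.79), RRM2, a subunit of ribonucleotide reductase (-1.67), and CDT1, which licenses replication origins (-1.07), were the other replication genes. In mitosis they were CCNB1 and CCNB2, the B-type cyclins (-1.57 and -1.85), their kinase CDK1 (-1.54), TPX2 and KIF11 of the spindle (-1.40 and -1.09) and BUB1 of the spindle checkpoint (-1.25). CCNB1 stood at 6.34, 8.18, 13.2 and 14.1 FPKM in grafts of day 14 and 3.66, 5.59, 3.02 and 3.82 FPKM in grafts of day 30, with no overlap. With the controls of day 14 as 1 sample 2 replication genes and 0 mitosis genes remained called, and without the mixture-like libraries 3 and 3. MCM6 then had adjusted p values of 0.0585 and 0.0189, within a range of 5.93e-08 to 0.362.

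By list medians, immune genes were above the control on both days, except neutrophil and mast cell genes at day 30 (-0.10). The summed FPKM of that list ran from 360 to 409 in controls and 80.6 to 161 in grafts of day 14. At day 30 it ran from 11.9 to 1014 in controls and 90.5 to 209 in grafts. Counts of called immune genes are to be read beside 5.38% higher and 7.57% lower among all genes tested. Of 18 macrophage genes 1 was called lower and 1 higher (median -0.66), and their summed FPKM ran from 1145 to 3297 in grafts of day 14 and from 1323 to 2130 in grafts of day 30, against 168 to 397 in the controls of both days. CD14, a receptor for bacterial lipopolysaccharide, had 179.6, 141, 283 and 309 FPKM in grafts of day 14 and 84.3, 125, 120.5 and 113 FPKM in grafts of day 30, with no overlap. Its controls went from 5.07, 5.05, 3.81 and 3.41 FPKM to 3.21, 12, 17.6 and 4.78 FPKM. The change of -1.71 (SE 0.50, adjusted p = 0.0323) was lost in 16 of 32 alternatives, among them control day 14 as 1 sample. LYZ, lysozyme, was called higher (5.90), with a mean of 89.1 ± 130.4 FPKM in grafts of day 30, and CD68, a lysosomal protein of macrophages, was listed at 0 in every control.

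Of 26 lysosome and lipid-handling genes 3 were called lower and 0 higher (median -0.48): PLIN2, which coats lipid droplets (-2.34), GRN, progranulin (-1.33), and MCOLN1, a lysosomal channel (-1.01). PLIN2 stood at 30.8 and 31.9 FPKM in replicates 1 and 2 of the grafts of day 14 and at 205 and 252 FPKM in replicates 3 and 4, so those libraries set its value. These 3 calls ended with the controls of day 14 as 1 sample, without the mixture-like libraries, on TPM and without the mitochondrial transcripts in the scale. Among T and natural killer cell genes 1 of 8, the chemokine receptor gene CCR7, was called (-1.06), and among B and plasma cell genes (3) and neutrophil and mast cell genes (6) none was. Plasma cell gene MZB1 had 1.60, 2.23, 4.63 and 2.17 FPKM in grafts of day 14 and 6.12, 2.20, 19.7 and 11.6 FPKM in grafts of day 30 (change 1.02, SE 0.63, adjusted p = 0.312).

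Of 22 cytokine and chemokine genes 5 were called lower and 0 higher (median -0.92). Without control day 30 libraries 2 and 3 the median was -0.66, with 2 lower and 1 higher. OSM, oncostatin M, stood at 8.64, 7.24, 11 and 9.03 FPKM in grafts of day 14 and at 7.20, 4.57, 7.26 and 5.62 FPKM in grafts of day 30. Its controls went from at most 0.20 FPKM at day 14 to 0.19, 6, 7.81 and 6.80 FPKM at day 30, so the larger shift was in 3 of the 4 late controls (change -2.61, SE 0.60, adjusted p = 0.00884). CXCL8, interleukin 8, was at 1.10, 71.5, 129.8 and 5.24 FPKM in the controls of day 30 and at most 0.42 FPKM in those of day 14, again with replicates 2 and 3 high (change -4.32, SE 1.28, adjusted p = 0.0335). CXCL8 lost its call without either of these libraries. CCL24, also called lower, was listed at 0 in all 4 controls of day 14, which can be a failed estimate. IL1RN, the antagonist of interleukin 1 (-2.03), CCL24 (-1.38) and IL16 (-0.64) were the others, and with the controls of day 14 as 1 sample, or without the mixture-like libraries, none of the list was called.

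Interferon response and antigen presentation genes had 3 of 17 members called lower and 0 higher (median -0.61). B2M, the light chain of class I histocompatibility molecules, had 421, 534, 244 and 214 FPKM in grafts of day 14 and 162, 161, 409.5 and 270.4 FPKM in grafts of day 30, which overlapped. Its controls rose from 27.9, 22.1, 15.7 and 28.6 FPKM to 74.1, 76.0, 75.2 and 57.7 FPKM, so most of the change (-2.08, SE 0.42, adjusted p = 0.0038) lay in the controls. PSMB8 of the immunoproteasome (-1.34) and IRF8 (-0.999) were also called lower. Immediate early genes, which switch on within minutes of a stimulus or of handling, had 2 of 22 members called lower, BTG2 (-2.79) and EGR2 (-2.33). Their median day change was 2.20 in the controls and 1.14 in the grafts, and their median change went from -0.73 to -0.22 without control day 30 libraries 2 and 3. BTG2 was at 7.06, 6.60, 7.70 and 6.51 FPKM in the controls of day 14 and 244, 145, 113 and 154 FPKM in those of day 30, and its call ended with either sample change. In the endothelial list none of 19 members was called (median 0.15), although 2 were without control day 30 libraries 2 and 3, and none of the 4 skeletal and cardiac muscle genes or the single erythroid gene was. Of 6 adipocyte genes 1 was called higher, CIDEA of the lipid droplet (2.08), which was listed at 0 in 6 of the 16 artery libraries. Whether the other cell types had a part in these changes was not tested.

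Of 28 glycolysis and hypoxia genes 10 were called lower and 0 higher (median -0.68, or -0.36 without the mitochondrial transcripts in the scale). LDHA, lactate dehydrogenase A, had 262, 273, 357 and 397 FPKM in grafts of day 14 and 170.2, 168, 148 and 161 FPKM in grafts of day 30. Its controls went up from 51.5, 53.3, 50.4 and 54.6 FPKM to 98.5, 110.5, 129 and 80.1 FPKM. No groups overlapped, and the graft effect went from 2.57 to 0.64 (change -1.93, SE 0.19, adjusted p = 1.06e-05). The glycolytic enzyme genes TPI1 (-1.13), GAPDH (-1.56), GPI (-0.90), ALDOA (-0.80) and ENO3 (-1.35), the heme oxygenase gene HMOX1 (-4.22), ANKRD37 (-2.64) and BNIP3 (-0.78) were called with it. With the controls of day 14 as 1 sample 4 members were called, and without the mitochondrial transcripts in the scale 5 were lower and 1 higher.

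HIF1A, the oxygen-regulated transcription factor, differed from these in its course. It stood at 155, 151, 154 and 164 FPKM in controls of day 14 and 142, 137, 156 and 159 FPKM in grafts of day 14, which overlapped. At day 30 the controls had 283, 279.7, 283 and 279 FPKM and the grafts 139, 103, 90.9 and 115 FPKM, with no overlap. The controls rose by 0.85 and the grafts fell by 0.42, which gave a change of -1.26 (SE 0.14, adjusted p = 2.39e-05), called with the controls of day 14 as 1 sample too (adjusted p = 0.0109, range 5.79e-10 to 0.25).

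Of 28 nuclear genes of oxidative phosphorylation 10 were called lower and 1 higher, with a median of -0.40 against -0.08 for all genes. The median was -0.18 after quantile normalization (4 lower), where that of all genes was -0.03, and -0.011 without the mitochondrial transcripts in the scale, where that of all genes was 0.21. UQCRQ of complex III had 106, 155, 166 and 151 FPKM in grafts of day 14 and 87.2, 81.4, 66.7 and 78.6 FPKM in grafts of day 30, without overlap (change -1.16, SE 0.20, adjusted p = 0.00103). ATP5MC1 of ATP synthase (-1.16), COX8A of complex IV (-1.15) and NDUFB8 of complex I (-0.82) were others, and UQCRB, called higher (3.23), was chosen after its value was seen. None was called with the controls of day 14 as 1 sample, and 3 were lower without the mitochondrial transcripts in the scale.

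The transcripts of the mitochondrial genome itself moved the other way, mostly through the controls, with a median day change of -6.19 in controls and 0.97 in grafts. Of 13, 4 were called higher and 0 lower, namely ATP6, ATP8, COX3 and ND4L. ND4L was listed at 0 in all 4 controls of day 30, which can be a failed estimate. The controls of day 14 had 7008, 7102, 7141 and 7036 FPKM of ATP6 and those of day 30 had 2.44, 0.66, 2.33 and 1.37 FPKM. In grafts it was at 9695, 15519, 2349.8 and 1.29 FPKM at day 14 and 9305, 7099, 3.07 and 5608 FPKM at day 30. Each graft group thus held 1 library close to 0 beside 3 at 2349.8 FPKM or more, and the call of ATP6 (change 11.64, SE 3.35, adjusted p = 0.0295) ended in 11 of 32 alternatives. Without graft day 30 replicate 1, 2 or 4, or without control day 30 replicate 2, it missed the threshold. The controls of day 30 still had 4.39% to 7.81% of summed FPKM in mitochondrial transcripts, and 26.3, 970, 1307 and 419 FPKM of COX3. Their values of ATP6 near 0 can therefore be failed estimates too, which was not tested. No mitochondrial transcript was called with the controls of day 14 as 1 sample or without the mixture-like libraries.

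In TGF-beta and BMP signalling 5 of 31 genes were called higher and 0 lower (median 0.37). They were the inhibitory SMAD6 (0.98), the co-receptor gene TGFBR3 (1.10), BMP5 (1.35) and 2 secreted antagonists, GREM1 (1.43) and FST (1.80). None was called with the controls of day 14 as 1 sample or without the mixture-like libraries. Wnt signalling had 2 of 21 called higher, the receptor genes FZD8 (1.18) and FZD1 (0.73), and 1 lower, the transcription factor gene LEF1 (-0.74). These counts are near the shares of all genes tested. LEF1 was called in 5 of 31 alternatives and under none of the 4 other scalings, and the list had 0 calls with the controls of day 14 as 1 sample and 1 without the mixture-like libraries.

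Genes that promote apoptosis had 2 of 11 called lower and 0 higher (median -0.45), and genes that restrain it 1 of 13 higher and 0 lower (median 0.31). These small counts are to be read beside 5.38% higher and 7.57% lower among all genes tested. Of the restraining genes 7 changes were positive and 6 negative, from -2.64 to 1.38. CYCS, cytochrome c, had 101, 106, 141 and 143 FPKM in grafts of day 14 and 101, 73.3, 75.7 and 83.1 FPKM in grafts of day 30, while its controls moved from 81.1, 80.1, 84.8 and 83.9 FPKM to 113, 113, 117 and 99.8 FPKM. Its graft effect went from 0.55 to -0.41 (change -0.96, SE 0.16, adjusted p = 0.00114). BCL2L1, which encodes BCL-XL, was the restraining gene called (0.91). BAX, which opens the outer mitochondrial membrane, had a change of -0.63 (SE 0.32, adjusted p = 0.197), and BCL2, which opposes it, 0.80 (SE 0.35, adjusted p = 0.148). Neither was called in any of 32 alternatives. The call of BCL2L1 was lost in 17 of 32 alternatives, among them TPM, control day 14 as 1 sample and 11 of the 16 fits without 1 artery library. The call of CYCS was lost in 4 of 32, namely TPM, control day 14 as 1 sample, both sample changes and the scale without mitochondrial transcripts.

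Stress genes of the endoplasmic reticulum and chaperones had 5 of 23 called lower and 2 higher (median -0.20, against -0.08 for all genes). The lower calls depended on the scale, with 3 after median-of-ratios scaling, 2 after quantile normalization and 1 on TPM, beside 2 higher in each. Without the mitochondrial transcripts in the scale 1 was lower and 2 higher, and the median was 0.09, where that of all genes was 0.21. DDIT3, the stress-induced factor CHOP, stood at 108, 77.7, 77.9 and 80.6 FPKM in the controls of day 30 and between 28.9 and 42.5 FPKM in every library of the other 3 groups. Its change of -1.06 (SE 0.19, adjusted p = 0.00143) lay in the controls and ended with the controls of day 14 as 1 sample. PDIA6, a disulfide isomerase (-0.74), MANF (-0.65), SDF2L1 (-0.81) and DNAJB11 (-0.52) were lower. CRYAB and HSPB8, the small heat shock proteins of muscle, were higher (1.74 and 0.91). PDIA6 lost its call on TPM, after quantile normalization, without the mitochondrial transcripts in the scale and without the mixture-like libraries.

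A change of the graft effect can arise in either artery, and the controls moved more than the grafts in 486 of the 1121 called genes, 43.4% against 45.6% of all genes tested. The 7 genes named in each of 4 classes show both kinds. They are the largest changes among genes above 0 in every library and called in every fit without 1 artery library. Those fits cannot show how far a call rests on the small spread of the day 14 controls, because the rest of that group stays in. Of 515 genes eligible for naming, 269 were also called without the mixture-like libraries. Among genes below the control at day 14 that moved up, F3, tissue factor, which starts coagulation, stood at 51.6, 51.1, 50.1 and 49.2 FPKM in controls and 3.19, 2.66, 2.80 and 3.10 FPKM in grafts of day 14. At day 30 controls had 179.8, 98.5, 86.5 and 67.5 FPKM and grafts 142, 41.2, 112 and 97.3 FPKM. Grafts and controls did not overlap at day 14 and did at day 30 (change 3.54, SE 0.45, adjusted p = 0.000114), and the shift lay mainly in the grafts (4.53, against 0.98 in controls).

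PDILT, a testis-type relative of protein disulfide isomerase, showed the largest change among the named genes of this class (6.05, SE 0.71, adjusted p = 5.51e-05). Its controls went from 13.1, 12.5, 14.7 and 12.4 FPKM to at most 0.18 FPKM, and its grafts from 0.77, 1.61, 0.22 and 0.61 FPKM to 8.11, 17.0, 2.90 and 8.87 FPKM, so the graft effect changed sign. CYP2A10, a cytochrome P450 (4.54), and ADCY5, an adenylate cyclase (2.99), completed this class with PI16, EPYC and CASQ2. CYP2A10 ranged from 0.98 to 121 FPKM among the grafts of day 30, and its call ended with either sample change.

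In the class that stood above the control at day 14 and moved down, FAM83D, a protein of the mitotic spindle, was at 0.68, 1.22, 1.17 and 1.15 FPKM in controls and 1.48, 2.25, 2.02 and 1.96 FPKM in grafts of day 14. Controls of day 30 had 34.0, 22.9, 14.0 and 35.8 FPKM and grafts 1.12, 1.47, 1.80 and 1.72 FPKM. Only the late controls were high, so the change of -3.89 (SE 0.32, adjusted p = 8.33e-07) lay in the controls (3.67, against -0.21 in grafts). TACR1, a tachykinin receptor (-2.85), BTG2, CRABP2, which binds retinoic acid (-2.54), and OSM also changed more in controls than in grafts. RBM3, a cold-inducible RNA-binding protein (-2.97), and SRGN, the proteoglycan serglycin of blood cell granules (-2.91), completed the class, again with the larger shift in controls, with day changes of -1.34 and -1.09 in grafts against 1.63 and 1.82 in controls.

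Genes that were level with or above the control at day 14 and moved further up had, in all 7 named, a larger day change in the grafts. These 7 were picked by the size of their change and do not stand for the class. Among all genes tested 54.4% had the larger day change in grafts. ACKR1 moved nearly as far in controls (-1.25) as in grafts (1.35). ENPP3, an ectoenzyme that splits nucleotides, had 3.56, 3.65, 2.67 and 2.71 FPKM in grafts of day 14 and 36.0, 11.7, 16 and 21.6 FPKM in grafts of day 30, while every control had at most 3.57 FPKM (change 3.23, SE 0.47, adjusted p = 0.000383). ACKR1, a chemokine receptor of venules (2.60), ADRA2A, an adrenergic receptor (2.42), MEOX2, a homeobox factor of mesoderm (2.03), ALDH1A3, EBF2 (1.53) and the laminin chain gene LAMA3 (1.44) followed.

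Genes that were level with or below the control at day 14 and moved down had, in 6 of the 7 named, a larger day change in the controls. They too were picked by size, and 45.6% of all genes tested had the larger day change in controls. RNF112, EDIL3 and HIF1A were level with the control at day 14, with effects of -0.08, -0.06 and -0.07. DNER, a Notch ligand, was at 8.35, 9.60, 9.54 and 8.52 FPKM in controls of day 14 and 38.9, 30.9, 24.4 and 36.6 FPKM in controls of day 30. Its grafts stayed at 0.56, 0.58, 0.41 and 0.41 FPKM and 0.59, 0.19, 0.46 and 0.31 FPKM (change -1.84, SE 0.21, adjusted p = 3.26e-05). RNF112 (-2.97), FMOD, KLHL41 (-1.61), EDIL3 (-1.32) and HIF1A likewise had a larger day change in controls, whereas TUSC3 (-1.21) changed in grafts (-1.20) and stayed level in controls (0.01).

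**Figure D5:**
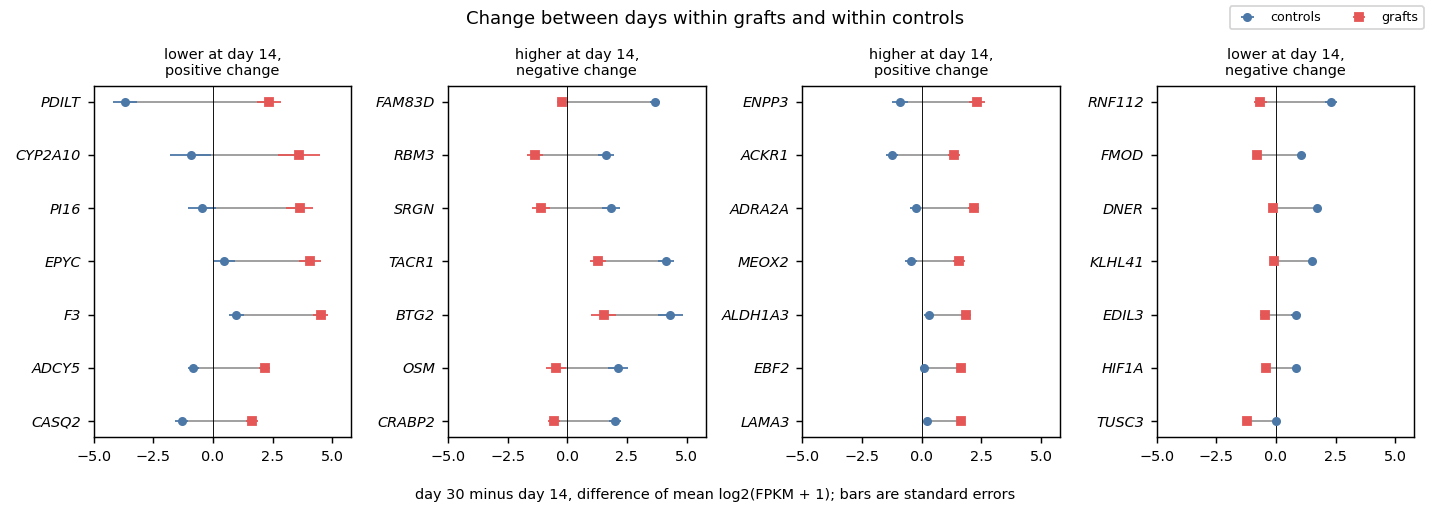
Difference between day 30 and day 14 in mean log2(FPKM + 1) (horizontal axis) within controls (blue circles) and within grafts (red squares), with standard errors, for the 7 named genes of each class (vertical axis). The distance from circle to square is the change of the graft effect. FAM83D, DNER and HIF1A moved more in the controls, and F3, ADRA2A and LAMA3 more in the grafts.

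With both sample changes together 7 genes stayed called, FGF1, PELI2, PLN, FAM83D, CDH19, G3BP1 and SSPN, and they are named for that. FGF1, a growth factor, stood below its control at day 14 and above it at day 30. It had 4.01, 3.82, 4.05 and 3.89 FPKM in controls and 1.16, 1.23, 1.45 and 1.21 FPKM in grafts of day 14, and 2.21, 2.30, 2.74 and 2.91 FPKM in controls and 7.15, 7.79, 5.41 and 7.08 FPKM in grafts of day 30. No 2 groups overlapped, and the change was 2.27 (SE 0.15, adjusted p = 5.98e-08, or 0.0219 with both sample changes, in a range of 2.12e-11 to 0.0219). PELI2, a ubiquitin ligase of innate immune signalling, went from 2.99, 2.83, 3.27 and 3.16 FPKM in grafts of day 14 to 10.2, 8.34, 8.18 and 9.27 FPKM in grafts of day 30. Its controls went from 15.8, 15.9, 14.6 and 13.8 FPKM to 8.54, 7.69, 9 and 9.71 FPKM, so that grafts and controls overlapped at day 30 (change 2.01, SE 0.12, adjusted p = 3.18e-08).

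The remaining 3 of these genes had libraries at 0 in the table, where a 0 may stand for a failed estimate. CDH19, a cadherin of Schwann cells, was at 13.5, 12.4, 12.6 and 14.4 FPKM in the controls of day 14 and at 0 in 11 of the other 12 artery libraries, so its change only reports that group. SSPN, a protein of the dystrophin complex of muscle, was listed at 0 in 3 controls of day 14 and at 65.7, 47.5, 30.2 and 64.2 FPKM in those of day 30. G3BP1, a stress granule protein, was listed at 0 in 3 grafts of day 14 and at 2.31 FPKM or more in every library of the other groups. The nerve list as a whole had 2 of 10 members called higher, CDH19 and PRPH, both listed at 0 in all 4 grafts of day 14.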

How the data were processed

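Per the labels' protocols, TRIzol was used to extract total RNA of rabbit vessels, and paired-end sequencing ran on a NovaSeq X Plus. The authors deposited 1 table of FPKM for 24964 transcripts, without read counts, which leaves depth and counting errors unknown. Fastp, HISAT2, StringTie, RSEM and DESeq2 are named in the submitters' processing notes, without versions, and the genome build is not given in the sources used here. FPKM were summed to 23669 genes. Symbols came from the table for 6837 tested genes and from a RefSeq gene table for 615, and 1205 without a symbol were counted but not named. A pseudocount of 1 was added, which understates changes of low genes.

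limma 3.58.1 (R 4.3.3), fitting 1 mean for each group to all 20 libraries with variances that follow the mean, gave the contrast, two-sided, adjusted by the Benjamini-Hochberg method over 8657 genes. Errors of log2 values are limma's standard errors. Tables and plots used Python 3.11.15, pandas 2.3.3, scipy 1.17.1 and matplotlib 3.10.9. The procedure was tested on simulated data. The simulated libraries were independent and none was mixture-like, so that test cannot show whether the calls hold for these samples.

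Members, gene lists, tests and settings were chosen with earlier results of these data known. Named genes were the 7 largest changes of each class among called genes with a symbol, a group mean of at least 5 FPKM, no artery library at 0 and a call in all 16 fits without 1 artery library. Each list added up to 3 called members with no artery library at 0, by p, or, where it had none, the 2 members with the smallest p, called or not, and THBS1, THBS3, THBS4, ACTA2, MYH11, TAGLN, PLN, BAX, BCL2, MMP12, MMP14 and MCM6 were always included. Other list members that were called are given by their change alone. Some list members are counted but not reported here by name. The labels state no pairing by animal, so the replicate number was no block in the main fit. Deviations of same-numbered graft and control libraries correlated between -0.18 and 0.13. With so little spread in the controls of day 14, and with mixture-like libraries, these correlations cannot decide whether the samples are paired. Mixture-like libraries lie nearest to a weighted average of their 3 companions. The scale without mitochondrial transcripts and the fit with control day 30 libraries 2 and 3 left out were settings added after seeing the data.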

Additional observations from a re-analysis of the deposited data

Results flagged for a closer look

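The graft effect differed between days, by the test of that difference, for 1121 genes, which are the subject of the text above. Among the 104 named genes, 413 groups of 4 libraries were tested for a library far from its companions and 25 had one, where chance gives about 1 in 20 groups. In controls of day 14 these were CD79B in replicate 2 (0.13 FPKM), FAM83D in replicate 1 (0.68 FPKM), FMOD in replicate 2 (170.22 FPKM), KIT in replicate 3 (0.22 FPKM), MCM6 in replicate 2 (1.65 FPKM) and SSPN in replicate 3 (1.27 FPKM). In grafts of day 14 they were CIDEA in replicate 3 (0.07 FPKM), CRABP2 in replicate 2 (159.88 FPKM), G3BP1 in replicate 4 (0.07 FPKM), KIT in replicate 1 (4.43 FPKM), MFAP5 in replicate 2 (45.12 FPKM), SELP in replicate 2 (6.18 FPKM) and THBS3 in replicate 1 (11.17 FPKM). In controls of day 30 they were B2M in replicate 4 (57.69 FPKM), DDIT3 in replicate 1 (107.84 FPKM), ECM1 in replicate 2 (12.29 FPKM), KERA in replicate 1 (2.94 FPKM) and THBS4 in replicate 2 (0.46 FPKM). In grafts of day 30 they were ACKR1 in replicate 2 (31.14 FPKM), CDH19 in replicate 2 (0.02 FPKM), CDK1 in replicate 2 (3.82 FPKM), FZD8 in replicate 1 (12.06 FPKM), GREM1 in replicate 3 (1.19 FPKM), MFAP5 in replicate 2 (79.8 FPKM) and TUSC3 in replicate 3 (3.6 FPKM).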

How the results depend on the processing

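Against 1121 called genes (466 higher, 655 lower), TPM gave 557 (288 and 269), weights per library 4257 (1639 and 2618, with a convergence warning), control day 14 as 1 sample 93 (50 and 43), no mixture-like libraries 381 (178 and 203) and both sample changes 7 (5 and 2). Scaling without mitochondrial transcripts gave 836 higher and 210 lower. Whether replicate numbers pair the samples is unknown, and a replicate block gave 441 (210 higher, 231 lower) with 63 list members. Without 1 artery library the count ran from 865 to 1405 (368 to 533 higher, 497 to 872 lower). List members called, 121 in all, became 324 with weights per library, 21 with control day 14 as 1 sample, 52 without mixture-like libraries and 2 with both changes. THBS4 passed the threshold at -1.60 with a filter of 5 FPKM (adjusted p = 0.0497), weights per group (0.033) or genes listed at 0 left out (0.0477), and at -2.20 with weights per library (1.5e-06). Leaving out 1 library moved THBS4 between -2.17 and -1.37. With control day 30 libraries 2 and 3 left out, a setting chosen after seeing the data, SELP turned to 0.065 and THBS1 to 0.825, neither called. The cause was not tested. Read depth is unknown.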
